A study of Homo sapiens with 12 samples.

Results

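Pre-immune serum immunoprecipitates (IP) of U373-MG cells, a human glioblastoma line, were compared with the input RNA of the same experiment, to describe which RNAs an IP without a specific antibody favours and which it loses. The comparison uses 8 of the 12 libraries of the series, chosen by their titles: 4 pre-immune IP libraries and 4 input libraries. The other 4 libraries are IPs of endogenous ADAR3, which binds double-stranded RNA and belongs to the adenosine deaminases acting on RNA, and their levels are given only beside the compared ones. All 12 libraries come from U373-MG cells, for which the labels name no treatment or genotype, and which were crosslinked with ultraviolet light, lysed and sonicated, per the labels' protocols. Input libraries were made from 1 µg of total RNA and each IP library from all RNA recovered, and ribosomal RNA was depleted from every sample before a strand-specific library was made. By contrast, polyA RNA is given as the molecule. Whether replicates are separate cultures is not said in the labels, and p-values here cover only the spread among these libraries, which may be technical.

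Pre-immune serum is blood serum drawn from an animal before it is immunised, so its antibodies were not raised against the protein of interest. Beads loaded with it still hold some RNA, because RNA and its bound proteins adhere to beads, to antibodies and to tube walls. Such an IP therefore shows the background that a specific antibody is measured against. Input shows RNA not put through the IP, apart from what ribosomal RNA depletion removed. An RNA with few input reads was therefore not necessarily scarce in the cells. Levels are in CPM, the reads of a gene per 1e6 reads, and so each gene's share of the reads assigned to genes in its library. CPM is a share of a library, so the amount of RNA recovered is not compared, and an RNA that takes a larger share lowers the shares of all others. The starting RNA was set differently for input and IP libraries. Effects of the IP and of library making on a share therefore cannot be told apart.

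Genes carry Ensembl IDs alone in the files, which do not pair them with symbols. Of the 31707 IDs in either table, 0 could be matched to the reference tables, so genes are described by level and difference, and 4 of them by ID. For the same reason the glioblastoma label was not checked against its marker genes, and no gene list or RNA class was counted. No source used here gives the annotation or the strand setting of the counting, so reads of antisense partners and near-identical copies are uncertain.

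Reads assigned to genes numbered 1875461 to 4946149 in pre-immune IP libraries and 4873428 to 12772412 in input libraries, against 23999234 to 30156884 in ADAR3 IP. Replicates of input were much closer to each other than those of pre-immune IP. Across the 9772 genes tested, which are not independent replicates, pairs of input libraries correlated at a Pearson r of 0.990 to 0.995 on log2(CPM + 1), and pairs of pre-immune libraries at 0.591 to 0.709. Libraries 3 and 4 of pre-immune IP stood apart in separate ways. In library 3 the 3 most abundant genes took 12.7% of reads, against 18.0% to 20.4% in the other 3, and in library 4 more genes had no read at equal depth.

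A small number of RNAs made up 18.8% ± 3.75 of pre-immune IP reads (SD, n = 4) and almost none of input. Of 9772 genes with a mean of at least 10 CPM over the 8 libraries, 23 were higher in pre-immune IP (0.235% of those tested; limma on log2(CPM + 1), Benjamini-Hochberg adjusted p under 0.05). These 23 genes took 20.6%, 19.1%, 13.4% and 22.0% of reads in pre-immune libraries 1 to 4, and 0.0835%, 0.0776%, 0.0816% and 0.0746% in input libraries 1 to 4. In ADAR3 IP they took 5.40% to 6.31%. The shares of the 3 groups do not overlap, with ADAR3 IP between the other two. Because the 23 genes were chosen on these libraries, their shares are a description.

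Just 5 of the 23 genes, those above 1000 CPM, carried nearly all of this: 18.5% ± 3.71 of pre-immune reads, 0.0146% ± 0.00483 of input reads and 5.85% ± 0.416 of ADAR3 IP reads (SD, n = 4 each). The other 18 took 0.318% ± 0.0778 of pre-immune reads and 0.0647% ± 0.00111 of input reads. The 3 most abundant genes of each pre-immune library, the same 3 in all 4, took 17.7% ± 3.49 of reads, while the 3 most abundant of each input library took 4.04% ± 0.356. The groups do not overlap in this value (two-sided exact permutation test, p = 0.0286, adjusted p = 0.0429 over 3 such comparisons). No 4 against 4 comparison can give a smaller p. The 3 include the share of genes with no read at equal depth, described below, where the choice of genes fixed the direction. Counting that comparison lowered the adjusted p given here, so no conclusion is drawn from the adjusted p.

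**Figure D1:**
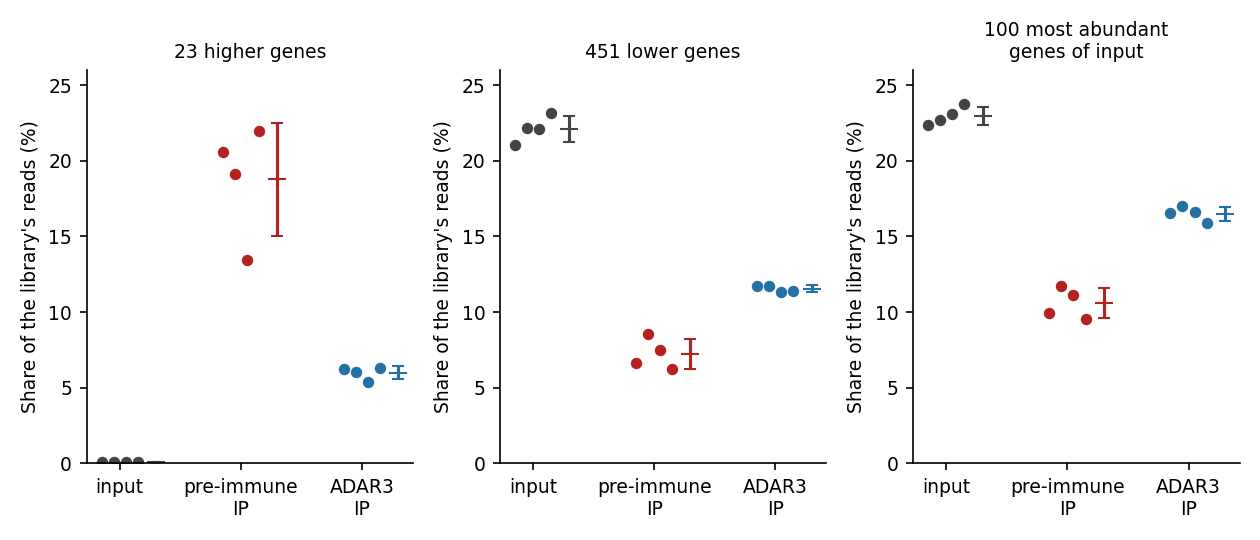
Share of each library's reads (percent, vertical axis from 0) held by the 23 genes higher in pre-immune IP, the 451 lower ones and the 100 most abundant genes of input, with a point per library and the mean ± SD beside it. The 23 higher genes hold 13.4% to 22.0% of pre-immune reads, and the 100 most abundant input genes hold less of each pre-immune library than of any input library.

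The 3 dominant RNAs did not keep a fixed proportion to each other between pre-immune libraries. The most abundant one stood at 77459, 67370, 50753 and 60805 CPM in pre-immune libraries 1 to 4, and the third most abundant at 58132, 50554, 42172 and 49931 CPM. Both were highest in library 1 and lowest in library 3. The second, ENSG00000137571, stood at 61651, 61916, 34077 and 93591 CPM in the same libraries, so that it was highest in library 4. The 3 also differed in ADAR3 IP. The third most abundant gene averaged 40894 CPM there, close to its pre-immune mean of 50197 CPM, whereas ENSG00000137571 was 24.9 times lower in ADAR3 IP than in pre-immune IP.

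ENSG00000137571 had the largest difference on the log2(CPM + 1) scale. Its input libraries held 2.98, 3.36, 1.85 and 1.54 CPM, from 96 reads in all, and every pre-immune library lay more than 4 orders of magnitude above them. Pre-immune IP averaged 62809 ± 24326 CPM, and input 2.43 ± 0.872 CPM (SD, n = 4 each), and the log2 difference was 14.11 ± 0.586 (SE; limma adjusted p = 1.76e-13). In ADAR3 IP the gene stood at 2518 ± 557 CPM (SD, n = 4), between the other groups.

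ENSG00000283907 was second on that scale and first with a pseudocount of 0.1 or with edgeR, where its log2 differences were 15.69 and 17.23 against 14.58 and 14.74 for ENSG00000137571. Pre-immune libraries 1 to 4 held 5268, 6608, 4002 and 10025 CPM, whereas input libraries held 1 read in all, in library 1. ADAR3 IP held 240 ± 50.1 CPM (SD, n = 4). The log2 difference on the log2(CPM + 1) scale was 12.55 ± 0.305 (SE; limma adjusted p = 5.35e-18), a scale that understates differences from a level near 0. Over pooled libraries its share of reads was 216448 times that in input (exact 95% interval 38847 to 8.55e+06, for counting error alone).

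Over the 23 the median level was 1.47 CPM in input and 262 CPM in pre-immune IP. Input held less than 1 CPM of 11 of the 23, and fewer than 10 reads over 4 libraries for 7 of them. The minimum was a mean of 10 CPM over all 8 libraries, so the 15 of the 23 with less than 10 CPM in input were tested only because pre-immune IP was high, and low input levels among the 23 are partly set by that minimum. A log2 difference of at least 4 was found for 14 of the 23. At the other end, 4 genes with 81.8 to 187 CPM in input were higher by 0.82 to 1.06 on the log2 scale. In the same input range, the most abundant gene of pre-immune IP, at 120 CPM in input, was higher by 9.08. All 23 had groups that do not overlap, as did 6.37% of all tested genes in that direction. In 17 of the 23, ADAR3 IP lay above all 4 input libraries, which held for 2775 of the 9772 genes tested. It lay below every pre-immune library for 19 of the 23, compared with 573 of the 9772.

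**Figure D2:**
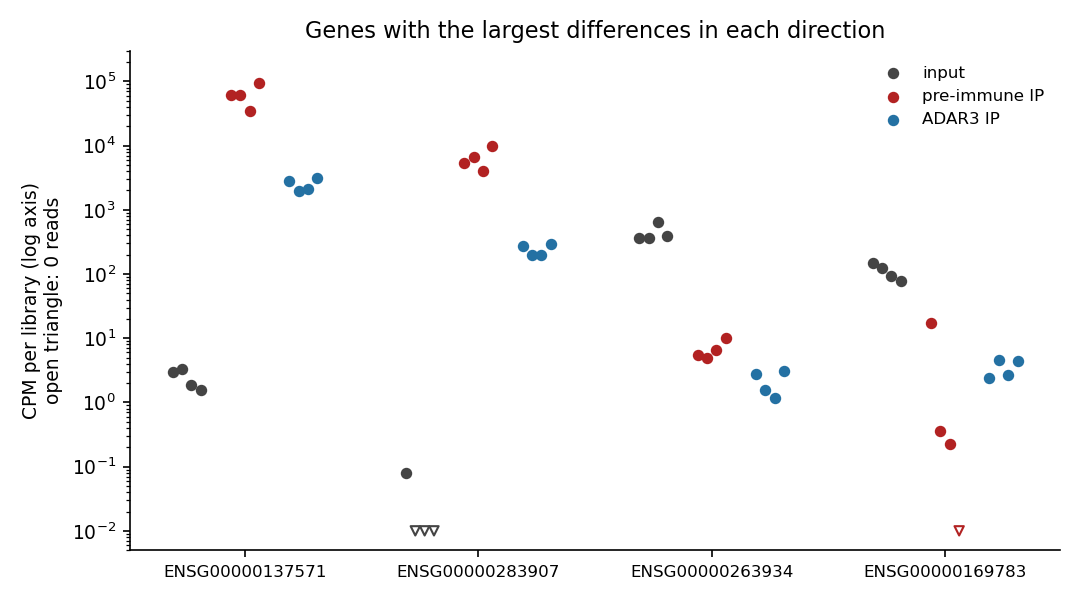
CPM in each library (log axis, 1 point per library, open triangles for libraries with 0 reads) of the 2 genes with the largest log2(CPM + 1) difference in each direction. The pre-immune points of ENSG00000137571 and ENSG00000283907 lie far above input with ADAR3 IP between, and for ENSG00000263934 and ENSG00000169783 both IPs lie below input.

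The RNAs that were most abundant in input made up less of pre-immune IP. Each of the 10 most abundant genes of input was called lower, with log2 differences of -4.26 to -1.71, and their means in pre-immune IP were 5.27% to 30.7% of those in input. Together these 10 averaged 9.66% of input reads and 1.98% of pre-immune reads. The first of them stood at 12982, 17142, 15050 and 18417 CPM in input libraries 1 to 4. In pre-immune libraries 1 to 4 it stood at 2362, 2825, 2549 and 1779 CPM, all far below. Its log2 difference was -2.75 ± 0.441 (SE; limma adjusted p = 0.000994).

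The same 10 RNAs fell into 2 kinds by their level in ADAR3 IP. For 3 of them ADAR3 IP held 0.954% to 2.90% of the input level, and pre-immune IP 5.27% to 15.0%, so that every ADAR3 IP library lay below every pre-immune library. For the other 7, ADAR3 IP held 41.8% to 114% of the input level and pre-immune IP 14.6% to 30.7%, with every ADAR3 IP library above every pre-immune library.

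Further down the input ranking, 17 of the 25 most abundant genes and 42 of the 100 most abundant were lower and 0 of these 100 were higher, against 4.62% of all tested genes called lower and 0.235% called higher. With 12 abundant genes left out of the library totals, a scaling described with the lower genes, 13 of these 25 and 20 of these 100 were lower. The median log2 difference of these 100 was -0.84, and -0.58 with that scaling. Pre-immune spread was smallest at high input levels, so a given difference was called more easily there. These 100 genes held 22.4% to 23.7% of reads in input libraries. In pre-immune libraries they held 9.97%, 11.7%, 11.1% and 9.56% and in ADAR3 IP 15.9% to 17.0%. Since the 100 genes were ranked on the input libraries, the shares are a description.

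Among all tested genes, 451 were lower in pre-immune IP (limma, adjusted p under 0.05), or 4.62%. They took 7.22% ± 1.02 of pre-immune reads, 22.1% ± 0.861 of input reads and 11.6% ± 0.213 of ADAR3 IP reads (SD, n = 4 each). Their log2 differences had a median of -1.41 and quartiles of -2.12 and -1.14, where the median of every tested gene was -0.30. In counts simulated with 0 genes changed and each group's own spread, the median over tested genes was -0.222, -0.233 and -0.213. There limma with group weights called 2, 3 and 2 genes lower and 0 higher, while limma without weights and edgeR called 0 in either direction. A fall of at least 2 on the log2 scale was found for 127 of the 451 and of at least 4 for 6. In 434 of the 451 the groups did not overlap, which in that direction held for 17.9% of the genes tested. In 402 of the 451, ADAR3 IP was below all input libraries too, compared with 3468 of the 9772 genes tested.

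How many genes counted as lower depended on what the libraries were scaled by. When the 12 genes that rank among the 10 most abundant of any pre-immune library were left out of the totals, 79 genes were lower and 30 higher (0.808% and 0.307%), and the median over all genes moved from -0.30 to -0.065. Median-ratio scaling gave 99 lower and 22 higher (1.01% and 0.225%). TMM scaling, by contrast, gave 403 lower and 22 higher (4.12% and 0.225%) and a median of -0.30, close to the values with library totals. Higher genes made up 4.85% of calls with library totals, 5.18% with TMM, 18.2% with median-ratio scaling and 27.5% with the 12 genes left out, a share that moved mostly with the count of lower genes. Of the 12 genes, 4 were called higher and 4 lower. The 79 lower genes were all among the 451, and 21 of the 30 higher among the 23.

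The 79 genes lower under both scalings stood at a median of 228 CPM in input and 65.6 CPM in pre-immune IP, and their median log2 difference was -2.01. They took 12.5% ± 0.557 of input reads (SD, n = 4) and 2.79% ± 0.530 of pre-immune reads. All 10 of the most abundant input genes are in this set. It held no gene under 38.1 CPM in input, where pre-immune spread was larger and a call harder to reach.

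**Figure D3:**
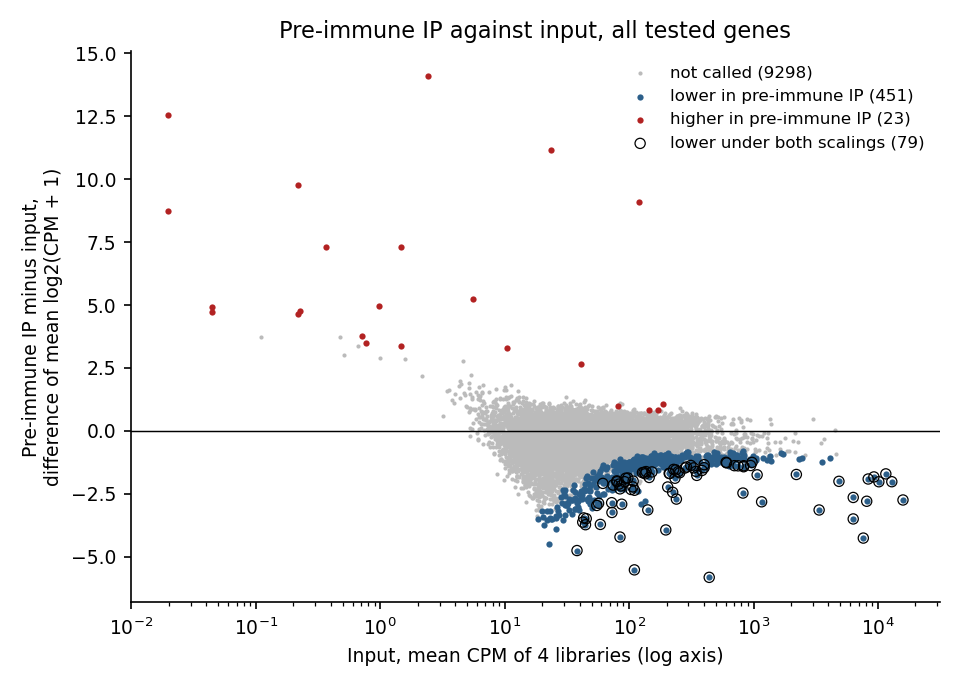
Difference of mean log2(CPM + 1), pre-immune IP minus input, against the mean CPM in input (log axis), with a point per tested gene, coloured by call. The 23 higher genes lie mostly at the left, at a median of 1.47 CPM in input, and the 79 genes that are lower under both scalings lie at 38.1 CPM or more.

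Of the lower genes, ENSG00000263934 had the largest difference on the log2(CPM + 1) scale. By the log2 ratio of mean CPM it was at -6.02, while the lowest gene was at -8.65. Input libraries 1 to 4 held 360, 368, 642 and 392 CPM, and pre-immune libraries 1 to 4 held 5.46, 5.01, 6.60 and 10.1 CPM. All pre-immune libraries lay far below all input libraries, and ADAR3 IP lower still at 2.15 ± 0.929 CPM (SD, n = 4). The log2 difference was -5.82 ± 0.649 (SE; limma adjusted p = 6.10e-06). The ratio of pooled reads, input over pre-immune IP, was 64.1, with a 95% exact interval of 52.1 to 79.9 for counting error.

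ENSG00000169783, moderately abundant in input, was uneven between pre-immune libraries, and the cause was not tested. Input held 148, 122, 92.5 and 78.1 CPM, and pre-immune libraries 17.2, 0.358, 0.228 and 0 CPM. Pre-immune library 1 had 85 reads of it, while libraries 2 and 3 had 1 read each and library 4 had 0. The groups do not overlap. The log2 difference was -5.52 ± 0.9 (SE; limma adjusted p = 0.00111), and with a pseudocount of 0.1 it was -7.23, a larger fall than the -6.01 of ENSG00000263934. ADAR3 IP held 3.53 ± 1.12 CPM (SD, n = 4), also below input.

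Genes without a read in a pre-immune library were common at low input levels and rare at the level of ENSG00000169783, where 0% to 0.216% of the 1392 genes of 100 to 200 CPM had none at equal depth. With every library thinned to 1875461 reads, a gene of 5 to 10 CPM in input would have 9.38 to 18.8 reads at its input level. Of 1318 such genes, 27.1%, 30.5%, 30.1% and 49.3% had no read in pre-immune libraries 1 to 4. In ADAR3 IP 0.910% to 1.67% had none. In input, with each library judged by the level in the other 3, 0% had none, which allows a share of up to 0.285% (exact 95% limit, counting error only). All 4 pre-immune libraries lay above all 4 input libraries (exact permutation test, two-sided, p = 0.0286, adjusted p = 0.0429 over 3 comparisons). The genes were chosen by their level in input, so any other group could only lie at or above 0%. No conclusion is drawn from this p-value, and the shares are a description.

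The share of missing genes fell with input level. It was 16.0% ± 8.96 for genes of 10 to 20 CPM (SD over 4 pre-immune libraries), 3.91% ± 3.87 for 20 to 50 CPM and 0.403% ± 0.699 for 50 to 100 CPM. Of 836 genes at 200 CPM or more, 0 were missing from any pre-immune library. Library 4 had the most missing genes in every class up to 200 CPM, with 29.2% of genes of 10 to 20 CPM against 9.62% to 13.1% in the other 3. It is also the shallowest library. All libraries were thinned to its depth here, and the cause of its missing genes was not tested.

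Missing genes were seldom the same in all replicates. Of 3064 genes of 5 to 20 CPM in input, 38.9% had a read in all 4 pre-immune libraries at equal depth, 36.0% in 3, 17.6% in 2, 6.01% in 1 and 1.53% in none. For ADAR3 IP 98.4% had a read in all 4 libraries.

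**Figure D4:**
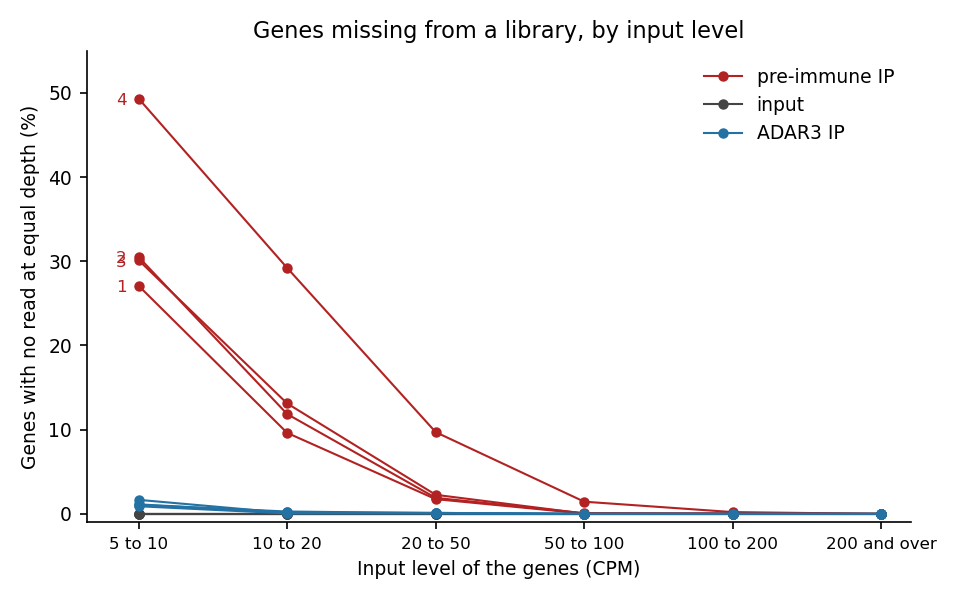
Percent of genes with no read when all libraries hold 1875461 reads (vertical axis), by the genes' level in input (horizontal axis), with a line per library and pre-immune libraries numbered. Pre-immune libraries start at 27.1% to 49.3% for genes of 5 to 10 CPM, while ADAR3 IP starts at 0.910% to 1.67% and input at 0%.

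The spread between replicates followed the same course. Over the tested genes the median SD of log2(CPM + 1) was 0.69 in pre-immune IP, 0.098 in input and 0.19 in ADAR3 IP, and pre-immune IP had the larger SD than input for 9697 of the 9772. With the tested genes ordered by input level and split into 10 deciles, the median SD in the lowest decile was 1.85 in pre-immune IP, and in the highest 0.30, against 0.15 and 0.076 in input. The tests weighted the groups by their spread, with 1 weight per group for all genes (0.131 for pre-immune IP and 7.63 for input). The ratio of spreads between the groups was thus held fixed, although it differed between these deciles.

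Of the 9772 genes, 9298 were called in neither direction. The median log2 difference of -0.30 is a difference of mean logs, and the log2 ratio of mean CPM had a median of -0.080. By decile of input level the latter ran from -0.022 in the second to -0.16 in the ninth and -0.37 in the highest. The lowest decile had 0.50, but it holds 292 genes under 10 CPM in input that were tested only because pre-immune IP raised their mean. In the highest decile, of 181 CPM or more, 186 of 978 genes were lower with library totals and 45 with the 12 genes left out. In deciles 2 to 5 at most 25 were lower in each with library totals, and 0 to 5 with the 12 genes left out. Counts of calls also follow the spread. As a difference of mean logs, the second decile had a median of -0.55, with a pre-immune SD of 1.48 and 4 lower genes. The highest decile had a median of -0.40, with a pre-immune SD of 0.30 and 186 lower genes.

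**Figure D5:**
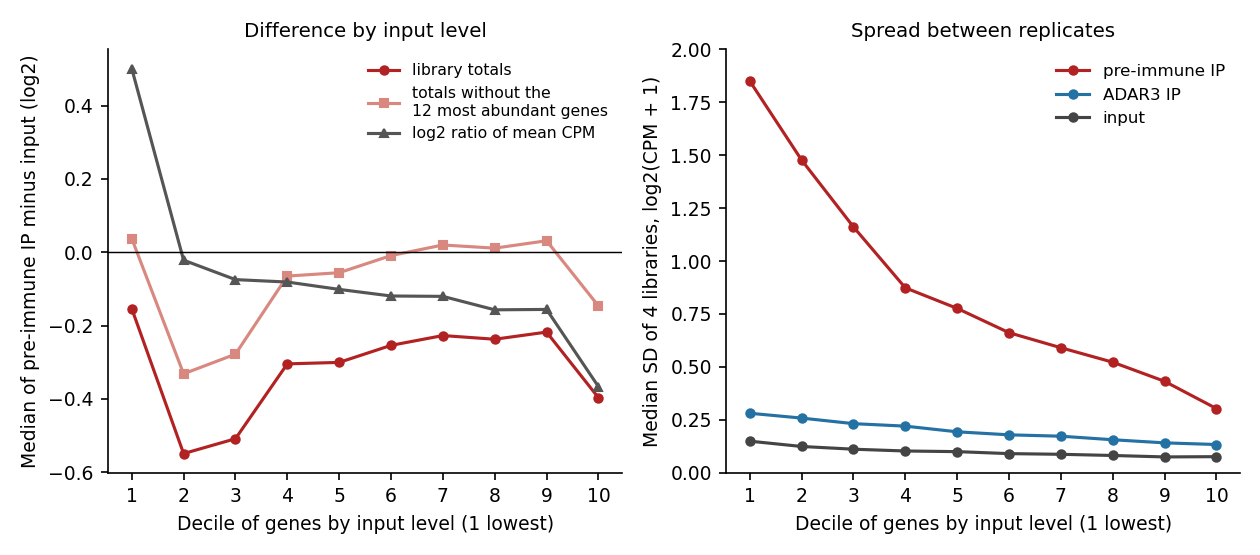
Left, the median of pre-immune IP minus input (log2) by decile of tested genes ordered by input level, with library totals, with totals without the 12 most abundant genes, and as the log2 ratio of mean CPM; right, the median SD of log2(CPM + 1) over the 4 libraries of each group. All 3 measures are below 0 in the highest decile, and the pre-immune SD falls from 1.85 to 0.30.

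The number of genes that hold 50% of a library's reads was 747 ± 128 in pre-immune IP and 961 ± 25.9 in input (SD, n = 4), which did not differ past the threshold (exact permutation test, two-sided, p = 0.0571, adjusted p = 0.0571; library 3 had 937 and the other 3 had 653 to 705).

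Genes with no read in any input library took few reads. This cut leaves out ENSG00000283907, which had 1 input read and averaged 6476 CPM in pre-immune IP. The 3646 genes with no read in any input library took 0.0804% to 0.130% of pre-immune reads and 0.0184% to 0.0229% of ADAR3 IP reads. The 13133 genes with no read in any pre-immune library took 0.304% to 0.314% of input reads.

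Each pre-immune library was also set against calls made without it. Leaving out pre-immune library 1, 2, 3 or 4 left 60, 108, 139 and 291 lower genes and 15, 12, 13 and 17 higher ones. In the library left out, 60 of 60, 101 of 108, 127 of 139 and 266 of 291 of those lower genes lay below every input library, compared with 54.5%, 55.9%, 48.5% and 57.6% of all genes tested. All 15, 12, 13 and 17 higher genes lay above every input library there, compared with 35.1%, 33.2%, 41.1% and 34.4% of all genes. The input libraries are shared by both sides of this comparison. Leaving out input library 1, 2, 3 or 4 instead gave 657, 443, 376 and 521 lower genes and 60, 31, 25 and 36 higher ones.

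The number of higher genes also depended on the test. Run on recovered reads of the same genes, the edgeR quasi-likelihood test called 325 genes higher (3.33%) and 388 lower (3.97%) with its adjusted p below 0.05. All 23 higher genes were among the former, and 263 of the 451 among the latter. Over all tested genes its median log2 difference was 0.043, and no gene was called in opposite directions.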

How the data were processed

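RNA of 12 libraries was counted per gene, and the 8 of pre-immune IP and input were compared, with groups and numbers from their titles. Per the submitters' processing notes the tools include STAR 2.7.7a, featureCounts and DESeq2, with GRCh38 as the build and no roles stated. The authors deposited 1 table of IP and 1 of input libraries, whose signal values are counts that had been scaled by 1 factor in each library, separately by table. All values (100%) were whole multiples of 1 read at a tolerance of 0.001 reads. Whole reads were recovered, the tables joined by gene ID with absent genes at 0, and CPM computed from library totals.

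Genes with a mean of at least 10 CPM over the 8 libraries were tested with limma 3.58.1 (R 4.3.3) on log2(CPM + 1), with group variance weights, trended eBayes variances and a threshold of 0.05 after Benjamini-Hochberg adjustment. The pseudocount of 1 understates changes of low genes. The 21935 other genes held 2.09% to 2.60% of reads. The limma and edgeR fits were tested on simulated counts. With 200 genes changed, limma with group weights found 37 of 50 raised 4-fold and 30 of 50 lowered 4-fold. It found 6 of 50 raised 2-fold and 9 of 50 lowered 2-fold. Of the unchanged genes it called 10 lower and 0 higher. Without weights, limma found 26 of 50 raised 4-fold and 26 of 50 lowered 4-fold, and called 2 unchanged genes lower and 1 higher. The edgeR test found 29 of 50 raised 4-fold and 21 of 50 lowered 4-fold, and called 2 unchanged genes lower and 8 higher. Named genes are the called genes with the largest differences and groups that do not overlap, 15 in each direction by rule and limited to 2 since IDs could not be named. The rule's other named genes, the gene lists and gene types were not analysed here for the same reason. The comparison, lists and rules were chosen with earlier results of these data known. edgeR 4.0.16, DESeq2 1.42.0, other scalings, pseudocounts, minimums, equal depth and left-out libraries were alternatives. Exact permutation tests used SciPy 1.17.1. Same-numbered libraries deviated together at correlations of 0.013 to 0.12, not all over 0.1, so the numbers were not taken to pair libraries.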

Additional observations from a re-analysis of the deposited data

Results flagged for a closer look

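Of 56 sets of 4 values, 8 held a library far from the other 3, with a gap above the 95% critical value of Dixon's test. Chance would mark about 1 in 20 independent sets, but these sets share libraries and genes, so the 8 are not set against that rate. Pre-immune library 3 had 24.9% of reads in its 100 most abundant genes, against 31.0% to 32.0% in the others. It had 76.6% in tested genes called in neither direction, against 69.4% to 70.5%. Pre-immune library 4 had more genes with no read at equal depth: 49.3% of those of 5 to 10 CPM in input against 27.1% to 30.5%, 9.71% of those of 20 to 50 CPM against 1.75% to 2.27%, and 1.45% of those of 50 to 100 CPM against 0.0403% to 0.0806%. For ENSG00000263934, input library 3 had 642 CPM against 360 to 392. For ENSG00000169783, pre-immune library 1 had 17.2 CPM against 0 to 0.358. For ENSG00000283907, input library 1 had 0.0783 CPM, which is 1 read, against 0, and a single value apart from equal others is always marked. The cause of each was not tested.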

How the results depend on the processing

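The 23 higher and 451 lower genes had 0 members called in the opposite direction in any setting run, and the 4 named genes kept their direction and passed the threshold in all 92 pairs of gene and setting. Higher genes numbered 151 without group weights, 325 with edgeR, 298 with edgeR's own filter, 1014 with DESeq2, 12 and 47 at pseudocounts of 0.1 and 5, 247 without a filter, 36 and 101 at minimums of 1 and 50 CPM, and 58 at equal depth. Lower genes numbered 799 with DESeq2, 201 and 734 at those pseudocounts, 2168 without a filter, 715 at 50 CPM, 722 at equal depth, 99 with median-ratio scaling and 79 without the 12 most abundant genes in the totals. Leaving out 1 library gave 12 to 60 higher and 60 to 657 lower genes, with the lowest from pre-immune libraries. The median over all genes, -0.30, became -0.17 with median-ratio scaling and, in alternatives chosen after seeing the data, -0.065 without the 12 genes and -0.080 as a ratio of mean CPM; it ranged from -0.34 to -0.22 with 1 library left out. With the replicate number as a block, 111 genes were higher, 19 of them among the 23, and 676 were lower, 393 of them among the 451. No pairing was taken from the numbers, although 6 of 8 libraries correlated best with their own number. Gene list alternatives were not run. What causes them was not tested. Depth limits genes of low level most: 3 reads correspond to 1.60 CPM in the shallowest library.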
